A study of Mus musculus with 55 samples.

Results

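The genes described here are 9 genes of the oligodendrocyte lineage, measured in primary mouse neuronal cultures and chosen by name. Of these, 5 are myelin genes (Mbp, Mag, Mobp, Cnp and Cldn11) and 4 mark the lineage from its progenitors on (Olig1, Olig2, Sox10 and Pdgfra). They are 9 of 28492 genes in the maturation experiment and 9 of 28216 in the stimuli experiment, and each is represented by its RefSeq transcript with the most counts. The cultures came from forebrain (cortex and hippocampus) of CD1 mouse embryos of mixed sex, at embryonic day 16 to 17.5. The maturation experiment (28 samples) compared 7 days in vitro (7DIV) with cultures labelled 23DIV, a stage that spans days 19 to 23. Each stage had basal samples and samples given 55 mM KCl, or 50 µM bicuculline with 2.5 mM 4-aminopyridine (4APBic), for 15 or 180 min, with 3 samples a group except 2 in each 4APBic group at 23DIV. The stimuli experiment (27 samples) was done at 21DIV, with 3 basal samples and 4 silenced by 1 µM tetrodotoxin for 48 h (basal TTX). Its stimuli were 50 µM bicuculline alone, 55 mM KCl, and TTX withdrawal (TTXw), the washing out of TTX after those 48 h, for 15, 45 or 180 min, with 2 samples a group except 3 in TTXw at 15 and 180 min. The labels do not say that replicates came from separate cultures, so p-values measure the spread between these samples, which may be technical.

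Oligodendrocytes wrap axons in myelin and arise from progenitor cells that divide, carry the PDGF receptor encoded by Pdgfra, and express the transcription factors encoded by Olig1, Olig2 and Sox10. As progenitors mature they lose Pdgfra, keep Sox10 and switch on the myelin proteins. Neuronal activity is known to act on the division and differentiation of these cells. Neuronal cultures from embryonic forebrain contain some progenitors of glia, and the counts here come from whole wells, in which fewer cells of a type and less RNA per cell cannot be told apart.

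Libraries were CEL-Seq2, which counts the 3′ ends of transcripts. Counts on genes per library ran from 1659717 to 4474972 at 7DIV, from 1784169 to 14012872 at 23DIV and from 1177504 to 3909485 at 21DIV. Levels below are library-scaled counts (CPM, with library totals scaled by the trimmed mean of M values, TMM). Of the 9 members, 8 exceeded 5 CPM in at least 2 samples and were tested, and Mobp did not. A gene is called changed at an adjusted p under 0.05 and at least 1.5-fold, with p-values from the quasi-likelihood test of edgeR, adjusted over all genes tested by the Benjamini-Hochberg method. Marker lists of other cells gave a check of the cultures. The astrocyte list was present throughout, with 10 of 10 genes passing the filter. Of the microglia list C1qa and C1qb never exceeded 3 counts in a library, and the 4 endothelial genes listed in the files summed to at most 4.09 CPM in any library.

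Promoter windows of 300 bases (250 before the start and 50 after) were found in RefSeq for GRCm38.p6 for 6 members, in 8 windows, and not for Mbp, Olig1 and Sox10. Sequences of 4 are shown because Olig2, Pdgfra and Cnp fell and Cldn11 rose in the same samples, those given 4APBic for 180 min at 23DIV. Each runs 5′ to 3′ on the strand of the gene, and capitals mark matches to the E-box letters CANNTG, the core to which basic helix-loop-helix factors such as OLIG1 and OLIG2 bind. The windows lie at chr16:91225300-91225599 on the plus strand (Olig2), chr5:75152001-75152300 on the plus strand (Pdgfra), chr11:100574689-100574988 on the plus strand (Cnp) and chr3:31149670-31149969 on the plus strand (Cldn11). The Pdgfra window lies wholly inside the gene, which begins at 75151322, so it surrounds a later start and not the first.
Olig2: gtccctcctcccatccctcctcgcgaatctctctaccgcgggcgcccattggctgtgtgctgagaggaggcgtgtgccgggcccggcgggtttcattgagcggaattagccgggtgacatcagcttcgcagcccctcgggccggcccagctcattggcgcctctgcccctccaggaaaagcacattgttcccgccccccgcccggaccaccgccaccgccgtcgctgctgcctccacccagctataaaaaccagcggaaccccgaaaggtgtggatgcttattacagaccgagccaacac
Pdgfra: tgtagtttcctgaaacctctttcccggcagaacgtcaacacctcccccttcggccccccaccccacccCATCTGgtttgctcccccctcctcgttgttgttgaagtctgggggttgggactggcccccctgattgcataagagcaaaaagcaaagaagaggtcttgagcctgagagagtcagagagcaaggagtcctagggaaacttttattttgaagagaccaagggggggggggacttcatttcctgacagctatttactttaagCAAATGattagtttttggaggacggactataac
Cnp: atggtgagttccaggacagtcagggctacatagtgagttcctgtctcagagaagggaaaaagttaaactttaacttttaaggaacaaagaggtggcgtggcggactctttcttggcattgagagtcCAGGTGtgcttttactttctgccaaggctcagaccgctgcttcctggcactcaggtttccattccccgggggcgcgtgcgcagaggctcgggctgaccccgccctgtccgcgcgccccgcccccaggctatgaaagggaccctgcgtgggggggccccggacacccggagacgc
Cldn11: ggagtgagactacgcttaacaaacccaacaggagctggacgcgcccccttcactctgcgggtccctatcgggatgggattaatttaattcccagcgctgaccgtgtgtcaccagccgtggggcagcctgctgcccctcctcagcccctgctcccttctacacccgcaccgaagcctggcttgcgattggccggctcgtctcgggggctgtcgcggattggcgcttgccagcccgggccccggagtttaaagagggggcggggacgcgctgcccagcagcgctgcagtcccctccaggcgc
E-box matches numbered 2 in the Pdgfra window and 1 in that of Cnp, and none were found in those of Olig2 and Cldn11, while 72.3% of all 32851 windows of this length held at least 1. The SOX letters ACAAAG, searched on both strands, occurred 1 time in the Cnp window, 6 times in the Mobp window and 1 time in each of 2 of the 3 Mag windows, against 18.7% of all windows with at least 1 match. The AP-1 letters TGANTCA (7.81% of all windows) and the CRE letters TGACGTCA (1.79%), which bind factors of the response to stimulation, were in none of the 8 windows. Both strands were searched for each, and no 2 motifs overlapped in the windows shown.

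The first comparison asked how the members differed between young and mature basal cultures. All 8 tested members were higher at 23DIV than at 7DIV, beside 18.2% of 10510 genes called higher and 33.1% called in either direction. For none of the 8 did the 3 basal samples of the stages overlap, but the share of all genes without overlap was not counted. With Mbp at the distal of its annotated 3′ ends, described below, the myelin genes had the larger differences and Pdgfra the smallest. Cnp and Sox10 lay close together, however, and at its proximal end Mbp differed less than Pdgfra.

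Olig1 (chr16:91269769-91271939), whose protein is a helix-loop-helix factor of progenitors and of myelin repair, stood at 138, 93.5 and 128 CPM in the basal 7DIV samples and at 576, 549 and 578 CPM at 23DIV. Its log2 fold change was 2.27 ± 0.15 (SE, adjusted p = 9.59e-08). Olig2 (chr16:91225550-91228677), the factor that specifies the lineage, read 153, 156 and 230 CPM and then 649, 617 and 559 CPM, a log2 fold change of 1.78 ± 0.16 (adjusted p = 1.59e-06). In both genes the 23DIV samples lay close together, well above every 7DIV sample. Sox10 (chr15:79154913-79164490), a factor that drives the myelin genes, read 297, 133 and 207 CPM at 7DIV and 874, 1580 and 1480 CPM at 23DIV. It differed by 2.65 ± 0.26 (log2 fold change, adjusted p = 3.8e-06). Pdgfra (chr5:75151322-75198206), the receptor of progenitors, read 114, 61.8 and 55.6 CPM and then 159, 252 and 169 CPM. Its difference was 1.37 ± 0.25 (adjusted p = 7.34e-04).

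Cnp (chr11:100574909-100591875), which encodes an enzyme of the myelin cytoplasm, read 20.8, 6.73 and 17.3 CPM at 7DIV and 87.9, 116 and 105 CPM at 23DIV, with a log2 fold change of 2.76 ± 0.27 (adjusted p = 3.08e-06). Cldn11 (chr3:31149920-31164326), the tight-junction claudin of myelin, had 1, 1 and 22 counts in the basal 7DIV samples and 131, 192 and 346 counts at 23DIV. Its summed counts, 24 and 669, gave a ratio per total count of 10.1, with an exact Clopper-Pearson 95% interval of 6.76 to 15.9. Mag (chr7:30899175-30914922), an adhesion protein of the inner myelin layer, had 1, 4 and 1 counts at 7DIV and 102, 67 and 106 at 23DIV. The ratio for Mag was 16.7 with an interval of 7.56 to 45.8. Both intervals pool the samples of a stage and leave out the spread between them, and 22 of the 24 Cldn11 counts at 7DIV came from 1 sample. They cover counting error at most, since whether reads of the same molecule were collapsed is not stated. Mobp (chr9:120149742-120181488), a basic protein of compact myelin, had 0 counts in all 15 samples at 7DIV, which allows up to 3 counts a library, and 37 counts in all over the 13 samples at 23DIV, 6 of which were at 0.

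Mbp (chr18:82475091-82585637), the basic protein that compacts myelin, needs a separate account, because its counts lay at 2 annotated 3′ ends that are 26.9 kb apart. The distal end, at chr18 position 82585637, is that of a transcript from the upstream start (82475162), and the transcripts from the classic downstream start (82554470) end close by, at 82585627. The proximal end at position 82558703 belongs to a transcript that begins upstream, at 82475146, and not to those from the classic start. The 2 ends therefore count different transcripts, and the proximal end does not report on those from the classic start. The transcript with the most counts was a distal one in the maturation experiment and the proximal one in the stimuli experiment, so both are given for each. At the distal end the basal samples read 5.67, 4.89 and 2.7 CPM at 7DIV and 32.8, 34 and 44 CPM at 23DIV, a log2 fold change of 3.18 ± 0.31 (adjusted p = 3.08e-06). At the proximal end the difference was 1.12 ± 0.31 (adjusted p = 0.0111). The distal end held 22.2% ± 6.45 (SD, n = 3) of the counts at both ends in basal 7DIV samples and 54.8% ± 9.24 (SD, n = 3) in basal 23DIV samples.

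**Figure D1:**
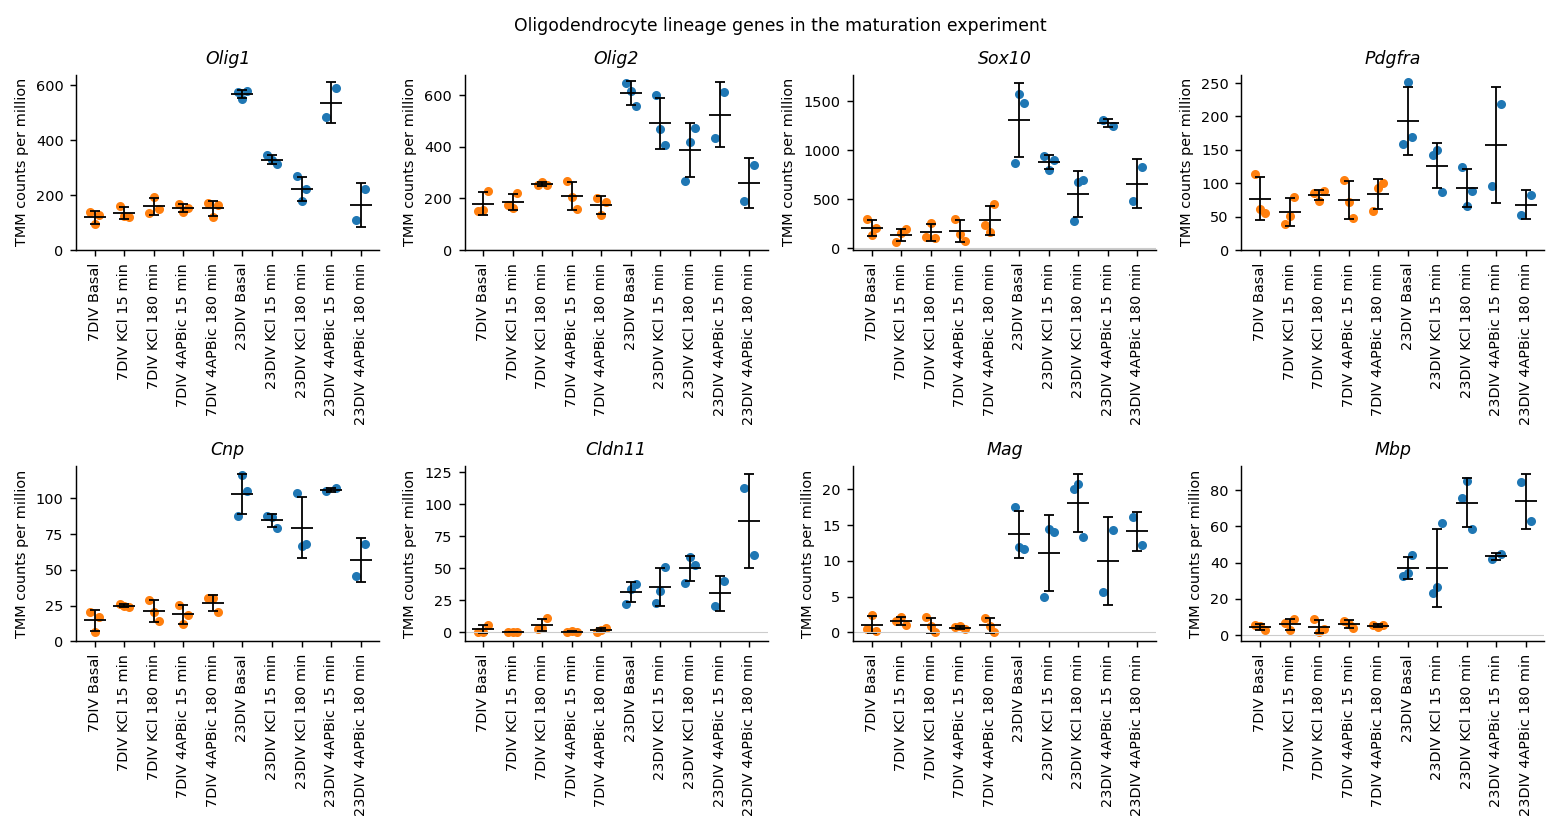
Level of each tested member in every sample of the maturation experiment, in TMM-scaled CPM on a linear axis for each gene. Orange points are 7DIV and blue points 23DIV samples, and black bars give the mean and SD of each condition (2 or 3 samples). The basal 23DIV samples of Olig1 lie at 549 to 578 CPM and those given 4APBic for 180 min at 109 and 222 CPM.

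The difference between stages held when all 5 conditions were averaged. Then 8 of 8 tested members were higher at 23DIV, beside 23.1% of 11746 genes called higher and 40.8% in all. Log2 fold changes were 0.69 ± 0.15 for Pdgfra, 1.13 ± 0.10 for Olig2 and 1.19 ± 0.09 for Olig1. Sox10 differed by 2.23 ± 0.20, Cnp by 1.99 ± 0.12, Mbp by 3.30 ± 0.19 and Mag by 3.72 ± 0.30, and Cldn11 is left out since a condition stood at 0 counts. Without replicate 2 of 4APBic for 15 min at 23DIV, Pdgfra fell below 1.5-fold (its lowest log2 fold change with any sample left out was 0.55). Other genes of the lineage were described by lists, here in the basal samples alone. Of the progenitor list 7 of 7 genes that passed the filter were higher (of 10 listed), with Gpr17, a receptor of committed progenitors, at 4.02 ± 0.45 and Cspg4, the NG2 proteoglycan, at 2.35 ± 0.24. Of the premyelinating list 4 of 5 tested genes were higher, with Bcas1, a marker of early myelinating cells, at 3.72 ± 0.53. Of a list of 21 other myelin genes only 7 could be tested and 5 were higher, with Ugt8a, the enzyme of galactolipid synthesis, at 2.67 ± 0.60. Several late myelin genes stayed near the floor in every library, with at most 9 counts of Mog, 6 of Opalin, 6 of Aspa and 1 of Klk6. The astrocyte list moved with the members. At 23DIV 9 of its 10 genes were higher, with a median log2 fold change of 2.92 beside 2.71 for the 8 tested members and 0.01 for all genes, and its summed level went from 511 to 765 CPM in the basal 7DIV samples to 4370 to 5540 CPM at 23DIV. Its part in the members' difference was not tested.

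The next comparisons asked how the members responded to depolarization with KCl and to synaptic activation with 4APBic at each stage. The groups of a stage share its 3 basal samples as controls. At 7DIV no member was called at either time with either stimulus. The background was also low, with 0% of genes called with KCl at 15 min and with 4APBic at 15 and 180 min, and 1.98% with KCl at 180 min (1.05% higher and 0.936% lower). DESeq2 also called none. At an unadjusted p under 0.05 the members numbered 2 and 1 with KCl (15 and 180 min) and 1 at each time with 4APBic. The share of all genes under that p was not counted, so these numbers cannot be set against a background. Olig1 read 122 to 159 CPM after KCl for 15 min, 135 to 193 CPM after 180 min and 122 to 172 CPM after 4APBic for 180 min, overlapping the basal 93.5 to 138 CPM. After 4APBic for 15 min it read 140 to 168 CPM, above all 3 basal samples, and did not pass the test (0.34 ± 0.20, adjusted p = 0.794). Olig2 at 252, 264 and 252 CPM after KCl for 180 min lay above its 3 basal samples, with a log2 fold change of 0.50 ± 0.22 (adjusted p = 0.323). Cnp at 26.3, 24.8 and 23.8 CPM after KCl for 15 min also lay above its basal samples (0.69 ± 0.30, adjusted p = 0.832). Cldn11 had 0 counts in all 3 samples given KCl for 15 min, against 1, 1 and 22 in basal samples, and no fold is given there.

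At 23DIV Olig1 was lower after KCl at both times and after 4APBic at 180 min. After KCl for 15 min Olig1 read 346, 327 and 313 CPM, below all 3 basal samples, a log2 fold change of -0.78 ± 0.19 (adjusted p = 0.00811). It was the only member called, beside 6.25% of genes (3.21% higher and 3.04% lower). After 180 min of KCl it read 268, 179 and 222 CPM (-1.35 ± 0.19, adjusted p = 4.86e-05). Pdgfra read 124, 66.7 and 89 CPM at that time (-1.05 ± 0.31, adjusted p = 0.0381). These 2 of 8 members were called, both lower, beside 4.89% of genes (2.98% higher and 1.91% lower). The call of Pdgfra was lost when basal replicate 2 or 3 or KCl replicate 2 or 3 was left out, with log2 fold changes between -1.32 and -0.82. Olig2 (269, 418 and 472 CPM, all below the basal samples) and Sox10 (279, 682 and 703 CPM, also all below) missed the threshold, with log2 fold changes of -0.66 ± 0.21 (adjusted p = 0.0614) and -1.24 ± 0.41 (adjusted p = 0.0685). Mbp at its distal end read 75.7, 85.1 and 58.5 CPM, above every basal sample (0.98 ± 0.31, adjusted p = 0.0546), and 0.28 ± 0.23 at its proximal end (adjusted p = 0.529).

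With 4APBic for 15 min no member was called (0.0511% of genes), and Olig1 at 483 and 590 CPM overlapped its basal samples. After 180 min 6 of 8 members were called, beside 14.2% of genes (7.39% higher and 6.84% lower), and they went in both directions. Olig1 read 109 and 222 CPM (-1.78 ± 0.22, adjusted p = 2.52e-06), Olig2 192 and 330 CPM (-1.23 ± 0.25, adjusted p = 8.74e-04) and Pdgfra 52.8 and 83.2 CPM (-1.52 ± 0.36, adjusted p = 0.0045). Cnp fell as well, to 46 and 68 CPM (-0.86 ± 0.27, adjusted p = 0.0262). All of these samples lay below the basal range of their gene. Cldn11 rose, to 113 and 60.8 CPM (1.46 ± 0.43, adjusted p = 0.0204), and so did distal Mbp, to 84.5 and 62.9 CPM (1.00 ± 0.34, adjusted p = 0.0413). The proximal end of Mbp, which counts a different transcript, was at -0.11 ± 0.26 (log2 fold change, adjusted p = 0.817). Sox10 read 483 and 835 CPM (-0.99 ± 0.46, adjusted p = 0.143) and Mag 16.1 and 12.2 CPM (0.05 ± 0.49, adjusted p = 0.957). Much of this rested on 4APBic replicate 2, since without it Olig1 alone was called among the members. The call of Mbp was lost when any basal or 4APBic sample was left out, that of Cnp also without basal replicate 2 or 3, and that of Cldn11 also without basal replicate 1 or 2.

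**Figure D2:**
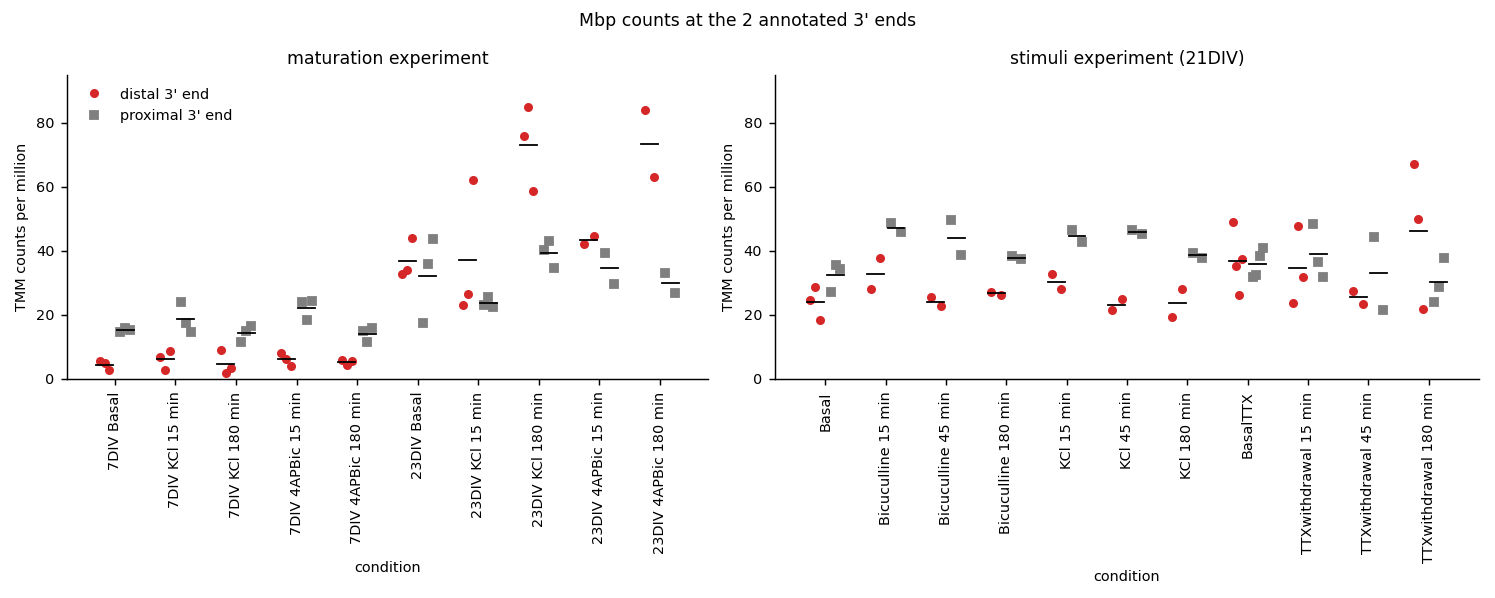
CPM of Mbp at its distal (red circles) and proximal (grey squares) annotated 3′ ends in every sample of both experiments, with black bars at the mean of each condition. In basal 23DIV samples the distal end lies at 32.8 to 43.9 CPM and the proximal end at 17.3 to 43.5 CPM, and after KCl or 4APBic for 180 min the distal end lies at 58.5 to 84.9 CPM.

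Other gene lists moved beside these results. After 4APBic for 180 min at 23DIV none of 7 progenitor genes was called, 1 of 7 premyelinating genes was higher (Tmem163, 1.65 ± 0.30) and 2 of 10 myelin genes were lower (Car2 at -0.99 ± 0.32 and Gpr37 at -1.22 ± 0.36). Of 10 astrocyte genes 3 were lower (Gfap at -2.14 ± 0.40, Aldoc at -1.35 ± 0.29 and Aqp4 at -1.64 ± 0.45), and the summed astrocyte level was 1660 to 3140 CPM against 4370 to 5540 CPM in basal samples. Of 4 genes of dividing cells 3 were lower, with a sum of 39.2 to 65.1 CPM against 102 to 146 CPM, and 3 of 7 neuron genes were lower, with a sum of 4090 to 4390 CPM against 4810 to 5790 CPM. Of 4 tested microglia genes 2 were higher (Aif1 and Cx3cr1), with a sum of at least 28 CPM against 12.1 to 16.1 CPM. After KCl for 180 min the dividing-cell sum was 54.5 to 66.2 CPM and the astrocyte sum 2700 to 5850 CPM, which overlapped the basal samples. The part of these shifts in the members' responses was not tested. Of the PDGF ligands, Pdgfb was lower after 4APBic for 180 min (-1.24 ± 0.38, adjusted p = 0.024), and Pdgfa, the main ligand of the Pdgfra receptor, was at 0.14 ± 0.23 (adjusted p = 0.732). In the stimuli experiment Pdgfa was called lower in basal TTX than in basal samples (-0.62 ± 0.17). It was called higher with bicuculline at 15 and 45 min (0.76 ± 0.19 and 0.59 ± 0.18) and with KCl at 15 min (0.69 ± 0.18). Pdgfb was higher with KCl at 15 min as well (1.02 ± 0.27), and neither was called in the other comparisons of that experiment.

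Whether the responses differed between stages was tested as an interaction. With KCl for 180 min Olig1 alone of the 8 members differed, by -1.75 ± 0.27 (log2, 23DIV response minus 7DIV response, adjusted p = 0.00344), beside 0.775% of genes. Without 7DIV basal replicate 4 or 23DIV basal replicate 1 the count was 2. With 4APBic for 180 min 4 of 8 differed, beside 4.95% of genes (2.38% with a lower response), all with a lower response at 23DIV. These were Olig1 (-2.12 ± 0.30, adjusted p = 7.8e-05), Cnp (-1.65 ± 0.40, adjusted p = 0.0144), Olig2 (-1.18 ± 0.33, adjusted p = 0.0331) and Pdgfra (-1.66 ± 0.49, adjusted p = 0.0433). Without 4APBic replicate 2 at 23DIV only Olig1 kept this call, and without 7DIV basal replicate 3, 7DIV 4APBic replicate 3 or 23DIV basal replicate 2 the count was 2. At 15 min no member differed between stages with KCl (2.03% of genes, 0.86% higher and 1.17% lower) or 4APBic (0.00851%).

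In the stimuli experiment, the comparison of basal TTX with basal cultures asked how 48 h of silencing bore on the members. In all, 6 of 8 members were higher in the silenced cultures and none was lower, beside 10.8% of 12027 genes called higher and 21.6% called in all. Olig1 read 157, 213 and 104 CPM in basal and 391, 414, 435 and 389 CPM in basal TTX samples (1.37 ± 0.16, adjusted p = 1.95e-08). Sox10 read 327, 531 and 374 CPM and then 1020, 987, 1000 and 1040 CPM (1.30 ± 0.14, adjusted p = 2.12e-09). For both genes the silenced samples lay close together and above every basal sample. Olig2 went from 129, 160 and 104 CPM to 289, 297, 314 and 339 CPM (1.24 ± 0.14, adjusted p = 2.63e-09) and Pdgfra from 127, 188 and 90.5 CPM to 260, 259, 257 and 198 CPM (0.84 ± 0.16, adjusted p = 4.63e-05). Cnp had the largest difference of the members, from 54.7, 56.3 and 58.8 CPM to 145, 175, 125 and 157 CPM (1.42 ± 0.14, adjusted p = 1.86e-10). Cldn11 rose from 23.9, 13 and 7.54 CPM to 42.3, 39.2, 20.6 and 40.9 CPM (1.25 ± 0.30, adjusted p = 0.0014), with groups that overlapped. Mag read 2.57, 3.33 and 3.77 CPM in basal and 5.28, 7.49, 5.69 and 7.18 CPM in silenced samples, from at most 20 counts a library, and its 1.03 ± 0.41 missed the threshold (adjusted p = 0.0541). Mbp differed by 0.17 ± 0.19 at its proximal end (adjusted p = 0.536) and by 0.63 ± 0.24 at its distal end (adjusted p = 0.0419), where it would be called higher and the count would be 7 of 8. Mobp had 5 counts in all over the 27 samples of this experiment and was at 0 in 23 of them.

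Lists around the members moved with them in silenced cultures. Of 9 premyelinating genes 7 were higher, among them Enpp6 (2.58 ± 0.39) and Bcas1 (2.30 ± 0.20), both markers of newly formed oligodendrocytes, and Myrf, the master regulator of myelin genes (2.04 ± 0.48), while Tmem163 was lower (-1.64 ± 0.22). Of 11 myelin genes 8 were higher, such as Plekhb1 (1.57 ± 0.16) and Ugt8a (1.45 ± 0.26). In the progenitor list 4 of 9 were higher, such as Gpr17 (2.45 ± 0.27) and Sox8 (1.68 ± 0.27), and Pcdh15 was lower (-0.82 ± 0.15). The median of the 10 astrocyte genes, all higher, was 1.72, above the 1.25 of the 8 tested members, and the astrocyte sum was 6950 to 8100 CPM against 2450 to 3000 CPM. The neuron sum was 3950 to 4490 CPM in silenced and 4820 to 5000 CPM in basal samples, with 1 of 7 genes lower. The log2 ratio of Xist to the summed Y-linked genes depends on the sex of the embryos in a culture and on the level of each gene. It was 1.29 to 2.21 in the 12 samples that had received TTX and 0.454 to 1.23 in the 15 that had not, with no overlap. Ddx3y was at -0.51 ± 0.13, Eif2s3y at 0.28 ± 0.27 and Uty at -0.28 ± 0.31 in basal TTX against basal, and none was called. The part of these in the members' difference was not tested.

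**Figure D3:**
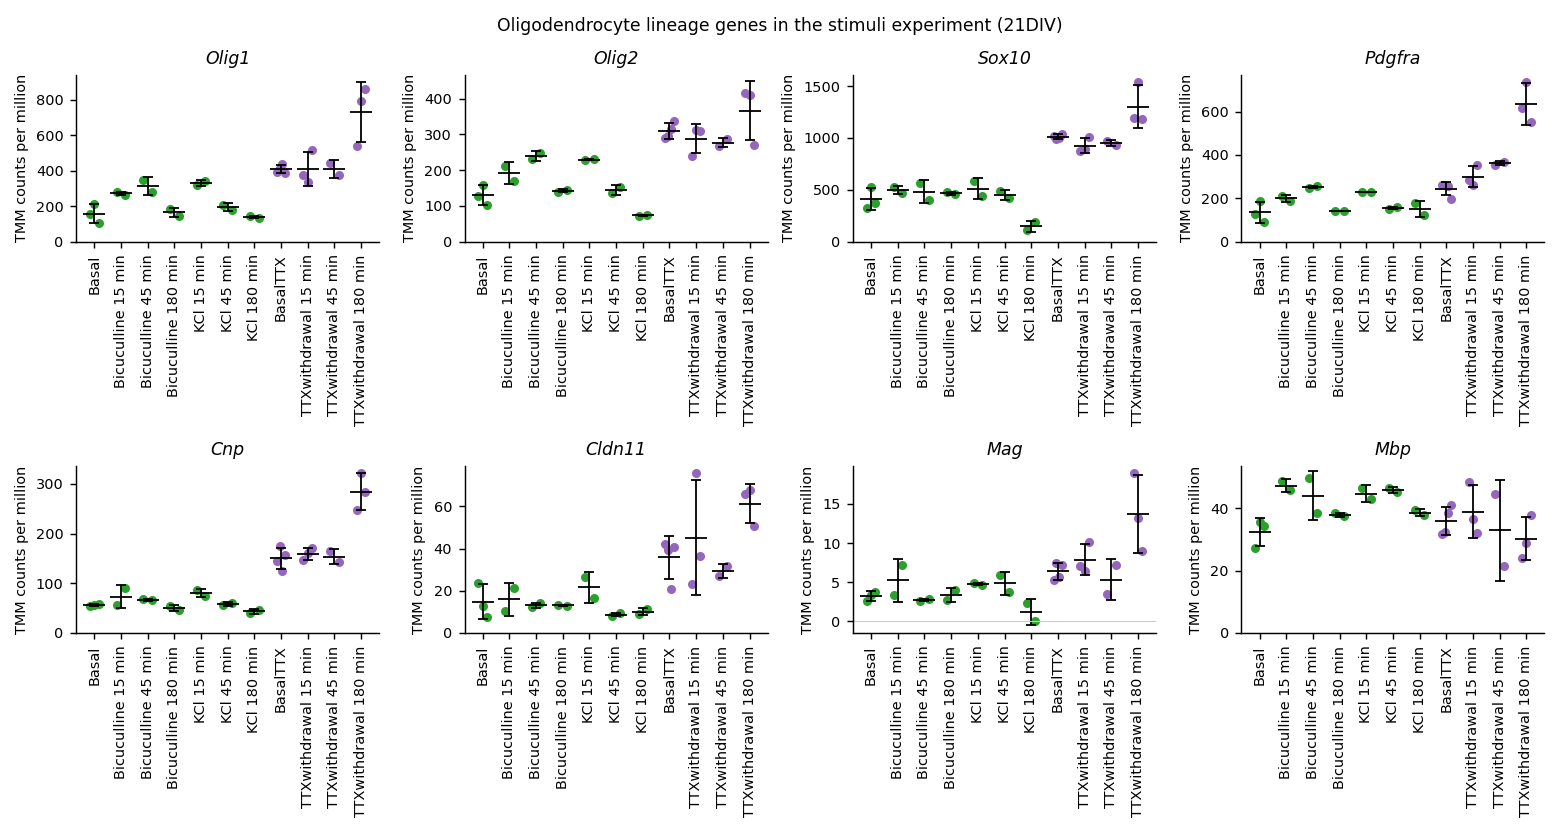
Level of each tested member in every sample of the stimuli experiment, in TMM-scaled CPM on a linear axis for each gene. Green points are samples without TTX and purple points samples that received it, and black bars give the mean and SD of each condition (2 to 4 samples). Sox10 lies at 987 to 1040 CPM in basal TTX and at 113 and 187 CPM after KCl for 180 min.

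Against the same 3 basal samples, bicuculline alone and KCl were followed at 15, 45 and 180 min. With bicuculline Olig1 read 278 and 265 CPM at 15 min (0.78 ± 0.19, adjusted p = 0.0125) and was the only member called, beside 3.42% of genes (2.4% higher and 1.01% lower). This call was lost without basal replicate 5, the lowest of the basal samples for Olig1, or bicuculline replicate 2. At 45 min 3 of 8 members were higher, beside 4.50% of genes called higher and 7.45% in all. They were Olig1 at 350 and 277 CPM (0.98 ± 0.19, adjusted p = 4.06e-04), Olig2 at 230 and 249 CPM (0.87 ± 0.16, adjusted p = 2.07e-04) and Pdgfra at 247 and 255 CPM (0.89 ± 0.18, adjusted p = 6.98e-04). Each of these samples lay above the 3 basal samples of its gene. At 180 min no member was called (0.765% of genes), and Olig1 at 183 and 146 CPM, Olig2 at 139 and 145 CPM and Pdgfra at 140 and 142 CPM were within the basal range. The well codes of the bicuculline and KCl samples begin with B at 15 and 45 min and with A at 180 min. Basal samples have both letters, and the later time cannot be told apart from this difference in code. The myelin members, with Mbp at its proximal end, did not pass the test at any time with bicuculline, with log2 fold changes between -0.23 and 0.56.

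With KCl the same 3 genes were called higher at 15 min, beside 4.53% of genes called higher and 7.23% in all. Olig1 read 317 and 343 CPM (1.06 ± 0.19, adjusted p = 1.64e-04), Olig2 229 and 230 CPM (0.80 ± 0.16, adjusted p = 6.17e-04) and Pdgfra 231 and 230 CPM (0.77 ± 0.18, adjusted p = 0.00385, a call lost without basal replicate 5). These 6 values lay above every basal sample. At 45 min no member was called (0.765% of genes). At 180 min 2 of 8 members were lower, beside 0.258% of genes called lower and 0.765% in all. Sox10 read 113 and 187 CPM, below the 327 to 531 CPM of basal samples (-1.44 ± 0.18, adjusted p = 3.01e-06). Olig2 read 73.2 and 74.2 CPM, below its basal 104 to 160 CPM (-0.83 ± 0.18, adjusted p = 0.0172), a call lost without basal replicate 2 or either KCl sample. Olig1 at 144 and 136 CPM and Pdgfra at 177 and 123 CPM overlapped their basal samples. Mag had 3 and 0 counts in these libraries, and no fold is given.

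In these early samples genes of dividing cells and of astrocytes moved as well. At 45 min of bicuculline 4 of 4 dividing-cell genes were higher, with a sum of 97.2 to 127 CPM against 35.1 to 49 CPM in basal samples, and 6 of 10 astrocyte genes were higher, with a sum of 4980 to 5590 CPM. At 15 min of KCl 3 of 4 dividing-cell genes (112 to 115 CPM) and 4 of 10 astrocyte genes (4520 to 4580 CPM) were higher. The neuron sum, at 5910 to 6540 CPM after KCl for 15 min, also lay above the basal 4820 to 5000 CPM. Of the progenitor list Cspg4 alone was called at 45 min of bicuculline (higher, 0.69 ± 0.18), and no gene at 15 min of KCl. No tested premyelinating gene was called in either. At 180 min of KCl no gene of the astrocyte, neuron or dividing-cell lists was called. The part of these lists in the members' changes was not tested.

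KCl was given in both experiments, whose tables were normalized apart. The log2 fold change of Olig1 at 15 min was -0.78 ± 0.19 at 23DIV in the maturation experiment and 1.06 ± 0.19 at 21DIV in the stimuli experiment, each against its own basal samples. For Olig2 the values were -0.30 ± 0.21 and 0.80 ± 0.16, and for Pdgfra -0.61 ± 0.30 and 0.77 ± 0.18. At 180 min Sox10 was at -1.24 ± 0.41 and -1.44 ± 0.18 and Olig2 at -0.66 ± 0.21 and -0.83 ± 0.18, while Olig1 was at -1.35 ± 0.19 and -0.18 ± 0.21. No test of the difference between experiments was made.

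Withdrawal of TTX was compared with the 4 basal TTX samples. At 15 min no gene was called by edgeR (0%). No member had an unadjusted p under 0.05 then, and the share of all genes under that p was not counted. At 45 min no member was called (0.382% of genes). At 180 min 5 of 8 members were higher and none was lower, beside 7.33% of genes called higher and 14% in all. Pdgfra had the largest change, with 618, 738 and 550 CPM against 260, 259, 257 and 198 CPM (1.39 ± 0.15, adjusted p = 3.74e-09). Its samples at 45 min, 354 and 367 CPM, also lay above every control (0.57 ± 0.17, adjusted p = 0.157), while those of Olig2 (268 and 287 CPM, -0.16 ± 0.15, adjusted p = 0.789) and Sox10 (975 and 935 CPM, -0.08 ± 0.16, adjusted p = 0.918) lay below every control, and none of these passed the test. Olig1 read 538, 792 and 862 CPM (0.84 ± 0.15, adjusted p = 8.93e-05), above all controls. Olig2 at 417, 411 and 271 CPM did not pass the test (0.24 ± 0.13, adjusted p = 0.198). Sox10 at 1190, 1540 and 1180 CPM lay above the controls but did not pass either (0.36 ± 0.14, adjusted p = 0.0522). Of the myelin genes Cnp read 248, 322 and 283 CPM (0.92 ± 0.13, adjusted p = 1.06e-06), higher than in every control. Cldn11 read 65.7, 67.6 and 50.5 CPM (0.76 ± 0.27, adjusted p = 0.0417) and Mag read 18.9, 13.2 and 9.05 CPM (1.07 ± 0.36, adjusted p = 0.0287). The calls of Cldn11 and Mag were both lost without basal TTX replicate 3 or TTXw replicate 1 or 2, which left 3 members called. That of Cldn11 was also lost without basal TTX replicate 2 or 4, and that of Mag without basal TTX replicate 1. Mbp did not change at either end by the test, at -0.28 ± 0.21 (adjusted p = 0.386) at the proximal and 0.34 ± 0.24 (adjusted p = 0.346) at the distal end.

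After 180 min of withdrawal 6 of 9 progenitor genes were higher, among them Nkx2-2 (1.37 ± 0.36), C1ql1 (0.92 ± 0.20) and Cspg4 (0.72 ± 0.16). In addition 3 of 9 premyelinating genes (Bcas1, Sirt2 and Tcf7l2) and 5 of 11 myelin genes (such as Car2 and Ugt8a) were also higher, with Ugt8a at 0.79 ± 0.23. All 4 of 4 dividing-cell genes were higher, with a sum of 88.4 to 228 CPM against 66.1 to 83.2 CPM. The astrocyte sum was 10400 to 14700 CPM against 6950 to 8100 CPM, with 5 of 10 genes higher, and the neuron sum was 2470 to 2980 CPM against 3950 to 4490 CPM, with 3 of 7 genes lower. The part of these lists in the members' changes was not tested. Median log2 fold changes were 0.60 for the 4 lineage members, 0.84 for the 4 tested myelin members and 0.02 for all genes.

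**Figure D4:**
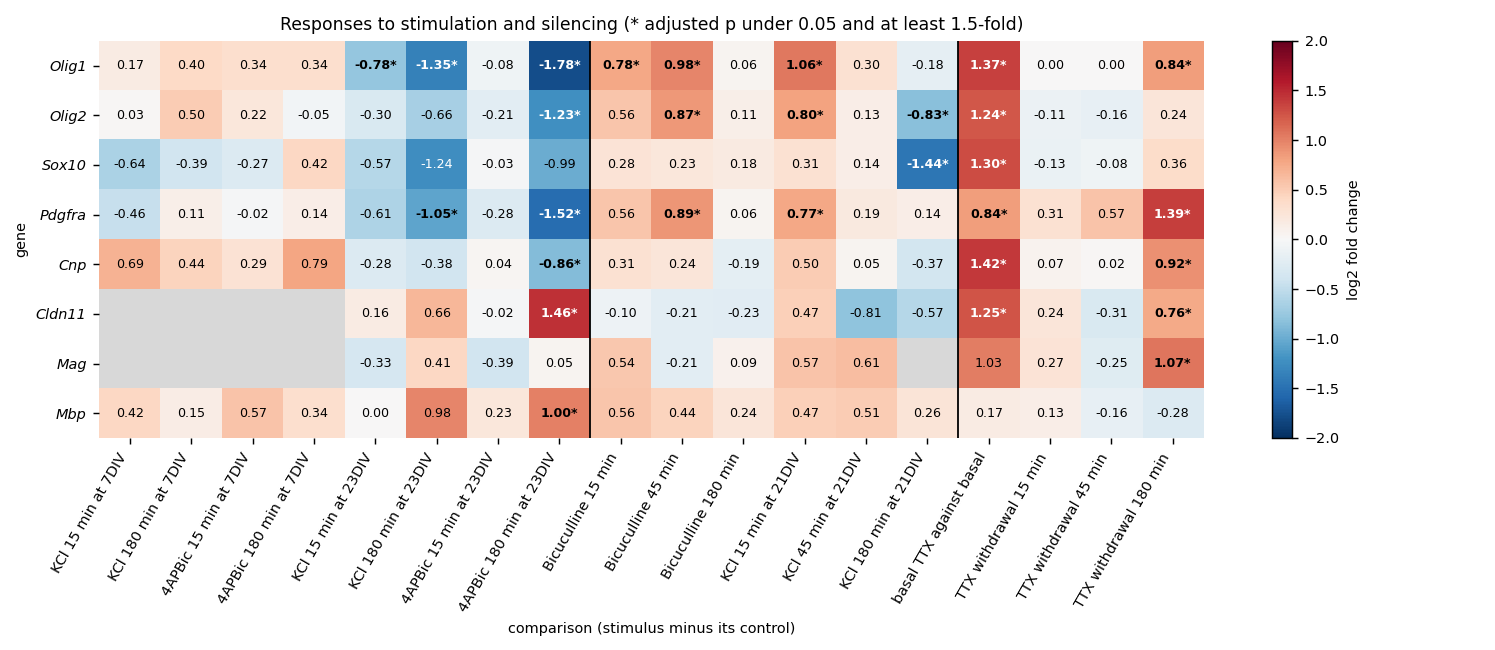
Log2 fold change of each tested member in the 18 comparisons with a stimulus or with silencing, printed in each cell and coloured from blue (lower) to red (higher), with an asterisk and bold type for an adjusted p under 0.05 and at least 1.5-fold. Vertical lines separate the maturation experiment, bicuculline and KCl at 21DIV, and the TTX comparisons; grey cells mark Cldn11 and Mag at 7DIV and Mag after KCl for 180 min at 21DIV, whose counts were at or near 0. Olig1 is lower after KCl and 4APBic for 180 min at 23DIV (-1.35 and -1.78) and higher after silencing (1.37).

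**Figure D5:**
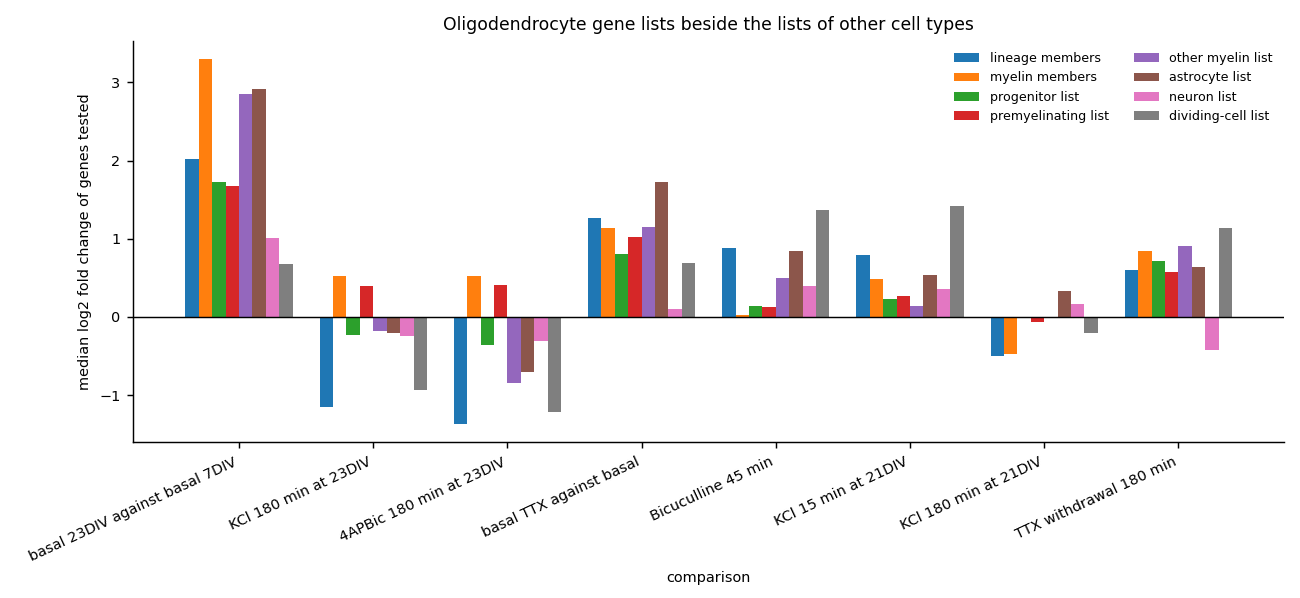
Median log2 fold change of the tested genes of each list, as bars from 0, in 8 comparisons. Bars of the lineage members and of the dividing-cell list lie on the same side of 0 in each comparison, such as -1.37 and -1.22 after 4APBic for 180 min at 23DIV and 0.60 and 1.14 after 180 min of TTXw.

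The members also varied together across libraries, which is given as a description, since libraries share depth, cell makeup and control groups. Over the 27 samples of the stimuli experiment, Pearson's r of log2 CPM was 0.93 between Olig1 and Pdgfra, 0.92 between Olig2 and Sox10 and 0.90 between Cnp and Cldn11, whereas proximal Mbp gave -0.49 to -0.18 with the other 7. As deviations from condition means the values for these pairs were 0.64, 0.33 and 0.44, and all pairs of tested members ran from -0.42 to 0.64. In that experiment the genes outside the members with the highest mean r with the 4 lineage members were Bcan (0.91), Myo10, Cxcl14 and Lpcat3 (0.90 each) and Afap1l2 (0.89), over samples that fall apart by TTX. With the 4 tested myelin members, proximal Mbp among them, the highest were Cxcl14 (0.59) and Ifitm2, Smoc1, S100a1 and Plxnb3 (0.57 each). These means are held down by Mbp, since Mag, Cnp and Cldn11 gave 0.68 to 0.90 with each other and -0.49 to -0.33 with proximal Mbp. Over the 28 samples of the maturation experiment, which fall apart by stage, such genes included Itm2c (0.92) and Thy1, Scrg1, Cck and Hpcal4 (0.91 each) for the myelin members and Zcchc24 (0.87), Car8 (0.85) and Cox4i1 and Mgll (0.83 each) for the lineage members. As deviations from condition means the highest mean r was 0.61 (Phf21b) with the lineage members and 0.36 (Tfb1m and Klhl24) with the myelin members there, and 0.65 (Gm33111) and 0.38 (Ung, Ppp2r5a, Pdcl and Eepd1) in the stimuli experiment.

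Some counts may be shared with neighbours. Cnp overlaps Dnajc7, Olig1 overlaps Gm15966 and Pdgfra overlaps Gm42802 and Gm42803, each on the opposite strand, as does Mbp with Rpl21-ps8, and Mobp overlaps Gm38642 and Pdgfra Mir7025 on their own strand. Whether reads were counted by strand is not stated, and reads of such partners cannot be told apart without it.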

How the data were processed

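Samples were grouped by their titles. A column headed 2DIV was matched to a 21DIV sample by well and library. The authors aligned CEL-Seq2 reads to mm10 with STAR and counted them with ESAT, and the deposited values are whole-number counts per RefSeq transcript, not normalized. Versions are not given in the sources used here, nor is whether molecular identifiers were collapsed. Transcripts were matched to symbols by RefSeq for GRCm38.p6, the build called mm10 (80.8% of 97700 and 80.9% of 96722 transcripts, while unmatched ones held 18.5% and 19.2% of counts). The named genes were the 9 members, the members' most alike genes and fixed lists. Some items are not reported here. Members and lists were chosen with earlier results of these data known. Testing used genes over 5 CPM in 2 or more samples, and was done with edgeR 4.0.16 (R 4.3.3; TMM, quasi-likelihood, Benjamini-Hochberg), with 1 coefficient per condition in 1 fit per experiment, and the basal stage comparison in its 6 samples. Log2 CPM for correlations used a prior count of 2. SE is the standard error of a log2 fold change. The fits were tested on simulated data. Replicate pairs (48) differed beyond sampling noise, with chi-square values of 2.17 to 20.2 per degree of freedom. Alternatives were DESeq2 1.42.0, other scaling, filters, depth, transcript choices, the replicate block and leaving out each sample.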

Additional observations from a re-analysis of the deposited data

Results flagged for a closer look

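Among the 8 tested members in the 4 basal TTX samples, the only group large enough for a test of outlying samples, 2 samples stood apart by Dixon's criterion, which chance meets in about 1 of 20 groups. Cldn11 in replicate 3 was at 20.6 CPM with the others at 39.2 to 42.3 CPM, and Pdgfra in replicate 4 was at 198 CPM with the others at 257 to 260 CPM.

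The response to 180 min of stimulation differed between stages by the interaction test for Olig1 with KCl (-1.75 on the log2 scale) and, with 4APBic, for Olig1 (-2.12), Olig2 (-1.18), Pdgfra (-1.66) and Cnp (-1.65). Between experiments, every sample given KCl for 15 min lay below its basal samples at 23DIV and above them at 21DIV for 3 members. That difference was not tested, and the share of all genes with such a pattern was not counted. The log2 fold changes were -0.78 and 1.06 for Olig1, -0.61 and 0.77 for Pdgfra, and -0.28 and 0.50 for Cnp.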

How the results depend on the processing

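Of 50 called values of members over all comparisons, 38 stayed called under every alternative other than leaving out a sample, 35 under each sample left out, and 34 under all. The value that turned direction was that of Mbp with 4APBic for 180 min at 23DIV, -0.11 on its other transcripts, an alternative chosen after seeing the data. Counts of member calls are summed over the times of a stimulus, so a member can count more than once. Those that moved by over 1.5 times were as follows. Without a filter on low counts, KCl gave 2 calls at 7DIV (0 in the main analysis), 7 at 23DIV (3) and 7 in the stage difference (1). Of 27637 genes in that fit, 27 and 316 (15 and 180 min) were called at 7DIV and 908 and 724 at 23DIV. In the stage difference 492 and 305 were called. There DESeq2 gave 4 member calls, beside 394 and 216 of 11746 genes. A fit of the compared groups gave 3, beside 139 and 58 of 11415 genes. Summed over transcripts, calls were 3 for 4APBic at 23DIV (6), 2 for its stage difference (4) and 3 for TTXw (5). Such a sum counts a read once for each transcript that holds it. Of 10532 genes so summed, 5 and 1290 (15 and 180 min) were called with 4APBic at 23DIV and 0 and 457 in its stage difference. With TTXw 0, 26 and 1431 of 10665 genes were called (15, 45 and 180 min). The other causes were not tested. Leaving out each sample in turn gave 8 calls for basal stage, 7 to 8 for averaged stage, 1 to 6 for 4APBic and 2 to 4 for KCl at 23DIV, 0 for both at 7DIV, 1 to 4 and 1 to 2 for their stage differences, 6 for basal TTX, 3 to 6 for bicuculline, 4 to 5 for KCl at 21DIV and 3 to 5 for TTXw. Replicate numbers did not pair the samples (same-numbered samples had a median correlation of 0.01 and 0 in their deviations), and with the number as a replicate block the calls were 8 for basal stage, 8 for averaged stage, 0 and 0 at 7DIV, 2 for KCl and 6 for 4APBic at 23DIV, 1 and 3 for their stage differences, 5 for basal TTX, 3 for bicuculline, 4 for KCl at 21DIV and 4 for TTXw. The share of all genes was not counted with a sample left out. With the block, 3069 of 10510 genes were called for basal stage and 4793 of 11746 for averaged stage. At 23DIV 711 and 543 were called with KCl (15 and 180 min) and 6 and 1556 with 4APBic. Stage differences gave 133 and 44, and 3 and 374. Of 12027 genes, 2171 were called for basal TTX. In time order, 199, 584 and 69 were called with bicuculline, 567, 36 and 60 with KCl, and 0, 31 and 1423 with TTXw. Depth limits Mag and Mobp, and Cldn11 at 7DIV, whose groups held few counts.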
